A study of Mus musculus with 6 samples.

Results

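Genes for the receptors of GABA, glutamate, dopamine, serotonin, acetylcholine, noradrenaline and extracellular nucleotides were examined in the olfactory epithelium of OMP-GFP mice. Genes were matched by symbol, to the names of the GABA-A, GABA-B, AMPA, kainate, NMDA, metabotropic glutamate, dopamine, serotonin, nicotinic, muscarinic, adrenergic, P2X and P2Y families. The platform annotation named 90 such genes at 169 probe sets, out of 18194 genes in all, and the probe set of highest mean signal stood for each gene. Further genes of these families that the annotation did not pair with a single symbol, Gabbr2 among them, were not analysed here.

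The arrays carried RNA of whole olfactory epithelium from 3 samples labelled homozygous and 3 labelled heterozygous for OMP-GFP. As background, this allele puts the coding sequence of green fluorescent protein in place of that of olfactory marker protein, a cytosolic protein of mature olfactory sensory neurons. By the labels every sample therefore carries the reporter, and the genotypes differ in whether an intact copy of Omp remains. At 1 of the 2 Omp probe sets, 1 library labelled heterozygous read like the homozygous ones, as described below. There was no wild-type group, so loss of the protein and a higher dose of the reporter cannot be told apart. Strain, age, sex and pooling of animals were not given in the sources used here, so p-values measure the spread between these samples, which may be technical.

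Transmitter receptors are either channels that open on binding the transmitter (GABA-A, AMPA, kainate, NMDA, nicotinic, P2X and the serotonin receptor of Htr3a and Htr3b) or receptors that act through G proteins (GABA-B, metabotropic glutamate, dopamine, the other serotonin receptors, muscarinic, adrenergic and P2Y). Olfactory sensory neurons release glutamate in the olfactory bulb, and dopamine D2 and GABA-B receptors on their terminals are known to reduce that release. In the epithelium itself, extracellular ATP acts on purine receptors of neurons and of the supporting sustentacular cells, and acetylcholine acts on muscarinic receptors.

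Most of these genes read dim. Of the 90, 12 had a mean log2 signal at or above the median of all probe sets and entered the test, a share of 13.3%, against 62.8% of all genes. These were P2rx4, Gabbr1, Gabrp, Drd2, P2ry6, Adra2c, Grik5, Chrna7, Htr1b, Chrnb2, P2ry14 and Htr3a. Their mean signals ran from 165 for Htr3a to 1735 for P2rx4, and those of the other 78 from 4.77 for Htr1f to 134 for Gabrb2. Signals are MAS5 intensities on a linear scale without detection calls, so a dim gene is not read as absent, and signals of different probe sets do not order their transcripts. In RNA of a whole tissue, fewer cells of a type and less RNA per cell cannot be told apart.

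**Figure D1:**
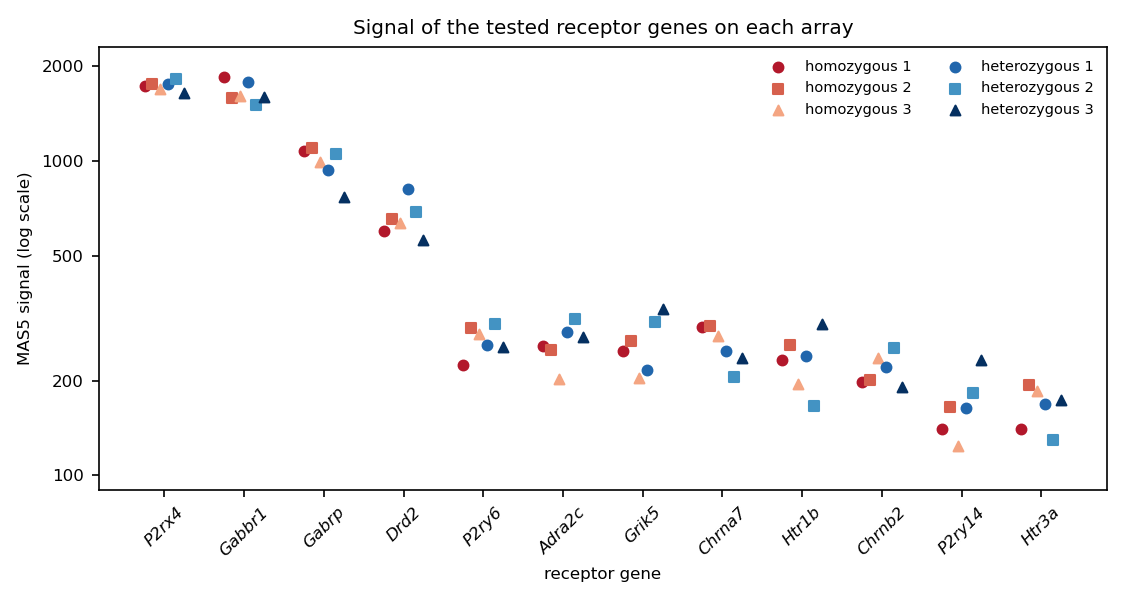
MAS5 signal (log axis) of the 12 tested receptor genes on each of the 6 arrays, 1 point per array, genes ordered by mean signal. For Chrna7 the 3 homozygous points lie above the 3 heterozygous ones, for Adra2c below them, and for the other 10 genes the groups overlap.

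The arrays were not alike in their cell type markers, and heterozygous 3 stood apart in those of brain neurons. Of a list of 15 markers of olfactory bulb and brain neurons, 14 were measured, and 10 of them were highest in that array, 6 by at least 1 log2 unit. Their summed signal was 10953 there, against 8159 and 8388 on the other heterozygous arrays and 8138 to 8528 on the homozygous ones. None was at 0, the lowest mean signal being 32.2. Rbfox3, the NeuN gene of mature central neurons, read 791 in heterozygous 3 and 49.5 to 184 elsewhere, and Cplx1, a synaptic gene, read 738 against 140 to 308. Markers of olfactory bulb projection neurons in the same list went both ways. Tbr1 was highest in heterozygous 3, at 49.5 against 22.9 to 42, and so was Slc17a7, at 80.3 against 25.4 to 45.4. Reln, at 560.9, lay within the 432.4 to 586.6 of the other arrays. Eomes was lowest in heterozygous 3, at 205 against 310.5 to 510, as was Cdhr1, at 2041.5 against 2049 to 2473. The 9 measured of 12 markers of mature olfactory sensory neurons summed to 54104 in heterozygous 3 and to 63247 to 69485 on the other arrays. They did not all go the same way. Slc17a6 was highest in heterozygous 3, at 2724.5 against 2470 to 2649. Cngb1, at 58.5, and Omp, at 8318.5 at its brighter probe set, lay within the range of the other arrays. The remaining ones were lowest in heterozygous 3. The part of these markers in the receptor values given below was not tested. The library labelled heterozygous 1 stood apart as well. At 1 of the 2 Omp probe sets the homozygous arrays read 5.7 to 31.3. Heterozygous 2 and 3 read 4664 and 9143 at it, but the library labelled heterozygous 1 read 26.3, among the homozygous values. The other probe set read 7918.5 to 8774 on all 6 arrays. Where that probe set lies in the gene is not known here, so the label was kept. The same library read 7268.5 for the myelin gene Mbp at the probe set used, against 655 to 1038 elsewhere. Other probe sets of Mbp were high in it too, but not all. A further one read 519 against 337 to 504, and another 507 against 358 to 448. Of 12 myelin and glia markers 9 were measured, and this library was the highest for 4 of them. It lay at least 1 log2 unit above the mean of the other arrays for 2. Markers of mature olfactory sensory neurons (median of the gene means 7106) and of sustentacular cells (16226) were bright, which fits the label olfactory epithelium. The median signal per array ranged from 147.9 to 163.7. Precision is limited by how many arrays there are.

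No receptor gene differed between the genotypes after adjustment. With limma, 0 of 12 tested receptor genes passed a Benjamini-Hochberg adjusted p of 0.05, where the background over all 22514 probe sets was 0%. The lowest adjusted p among the receptor genes was 0.859. At an unadjusted p under 0.05 there was 1 of the 12, Chrna7, beside 4.82% of all tested genes (2.41% higher and 2.42% lower in homozygous arrays). The log2 differences, homozygous minus heterozygous on the log2(signal + 38.8) scale, had a median of -0.02 over the 12, beside -0.00043 over all tested genes, and of -0.0017 over all 90, beside 0.0061 over all genes. Below and above 0 there were 45 genes each. The 2 groups of arrays did not overlap for 8 of the 90 genes, or 8.89%, beside a background of 10.3% of all genes, a share near the background. Of these, 4 were higher in homozygous arrays, beside 5.56% of all genes, and 4 lower, beside 4.78%. With 1 array fewer the groups separate more easily: 17 receptor genes did not overlap without the library labelled heterozygous 1 (18.9%, beside 21.7% of all genes) and 19 without heterozygous 3 (21.1%, beside 23.1%). No receptor gene passed adjustment without either library.

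Sequence upstream of the 4 receptor genes of highest signal is shown, since a brighter signal lies farther above the dim range in which most of these genes read. The bases are the 250 before the annotated start (RefSeq, GRCm38.p6), 5′ to 3′ on the gene's strand. Capitals mark CCCNNGGG, a core found in sites of the Ebf (Olf) factors of olfactory neurons, and GGGCGG, the GC box, on either strand.
Drd2: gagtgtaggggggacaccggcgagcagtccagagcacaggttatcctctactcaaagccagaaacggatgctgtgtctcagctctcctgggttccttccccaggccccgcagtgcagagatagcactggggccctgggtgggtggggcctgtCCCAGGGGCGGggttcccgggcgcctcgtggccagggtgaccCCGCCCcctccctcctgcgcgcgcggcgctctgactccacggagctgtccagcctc
P2rx4: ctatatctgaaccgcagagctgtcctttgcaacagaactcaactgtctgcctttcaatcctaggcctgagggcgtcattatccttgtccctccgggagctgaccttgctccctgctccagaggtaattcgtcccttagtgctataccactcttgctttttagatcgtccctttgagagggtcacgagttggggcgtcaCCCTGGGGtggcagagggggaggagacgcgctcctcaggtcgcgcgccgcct
Gabbr1: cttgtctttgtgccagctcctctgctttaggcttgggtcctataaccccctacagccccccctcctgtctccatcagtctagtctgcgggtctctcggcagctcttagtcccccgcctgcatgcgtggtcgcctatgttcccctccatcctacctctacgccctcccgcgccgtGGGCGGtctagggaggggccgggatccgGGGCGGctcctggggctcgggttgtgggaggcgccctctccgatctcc
Gabrp: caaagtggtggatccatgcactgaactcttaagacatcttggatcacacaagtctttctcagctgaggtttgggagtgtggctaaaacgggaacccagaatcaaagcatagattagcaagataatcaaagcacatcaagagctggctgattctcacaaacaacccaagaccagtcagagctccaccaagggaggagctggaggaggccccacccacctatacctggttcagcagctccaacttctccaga
They lie at chr9:49340153-49340402 on the plus strand, chr5:122707294-122707543 on the plus strand, chr17:37045716-37045965 on the plus strand and chr11:33578958-33579207 on the minus strand, in that order. CCCNNGGG starts 98 bases before the start of Drd2, where it overlaps a GC box, and 52 bases before that of P2rx4. It is not in these windows of Gabbr1 and Gabrp, and Gabbr1 and Drd2 hold 2 GC boxes each. Of 32851 promoters of the same length in the table, 11.8% hold CCCNNGGG and 32.7% the GC box. Among the 89 promoters of the 69 receptor genes that matched, 13.5% and 40.4% do. A match describes letters in a window and not a bound site.

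Of the inhibitory receptors, Gabbr1 and Gabrp read the highest signals. Gabbr1 encodes the GABA-B subunit that binds GABA. Its signal was 1850.5, 1587.5 and 1607 in homozygous 1, 2 and 3 and 1776.5, 1503.5 and 1599 in heterozygous 1, 2 and 3. The groups overlap, and the difference was 0.05 ± 0.09 (SE, n = 3 each; 95% interval -0.16 to 0.25; limma adjusted p 0.9745). The other tested probe sets of Gabbr1 gave 0.02 and -0.06. Gabrp encodes the pi subunit of GABA-A receptors, known from epithelia rather than from brain. It read 1077, 1100.2 and 994 in the homozygous arrays and 935, 1053 and 769 in the heterozygous ones. Heterozygous 3 was the lowest, the groups overlap, and the difference was 0.20 ± 0.11 (SE; 95% interval -0.04 to 0.45; limma adjusted p 0.9002). Its other probe set, also tested, read 775, 800 and 773 against 680, 739 and 598.5, with the same array lowest. There the groups do not overlap, and the difference was 0.21 (limma adjusted p 0.869). Without heterozygous 3 the difference of Gabrp at the probe set used was 0.09.

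The other 14 GABA-A genes were dim and were not tested. Gabrb2, a beta subunit of most brain GABA-A receptors, read 114, 116 and 110.5 in homozygous and 112, 109 and 241 in heterozygous arrays. At this probe set only heterozygous 3 stands apart. A further one, not tested, read 53.5, 55.1 and 49.2 against 65.3, 81.1 and 188. There all homozygous values lie below the heterozygous ones, with a difference of -0.63. At the remaining probe sets of Gabrb2 the groups overlap, with differences of -0.34, -0.44 and -0.28. Gabra4 read 103, 102 and 56.4 against 85.3, 165 and 150.4, an overlap, with a log2 difference of -0.44. Of the 15 GABA-A genes, 11 had a difference below 0 with all arrays and 6 without heterozygous 3. The median was -0.11 with all arrays and 0.05 without heterozygous 3. Leaving out the library labelled heterozygous 1 gave -0.22. At the probe sets used, Gabrq, the theta subunit gene, was the 1 member of this class whose groups did not overlap. Its signal was 11.1, 30.5 and 14.7 against 47.4, 51.2 and 77.8. All 6 values are dim, and the homozygous ones lie below the offset of 38.8. It had the lowest p of the 90 without the filter on dim probe sets (log2 difference -0.76; unadjusted p 0.00483 and adjusted p 0.905 in limma).

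Among the glutamate-gated channels only Grik5 was tested. Grik5 encodes the kainate subunit GluK5, which forms channels together with other kainate subunits. It read 248.8, 267 and 204 in homozygous and 216, 308 and 338 in heterozygous arrays. Heterozygous 3 was the highest, the groups overlap, and the difference was -0.21 ± 0.17 (SE; 95% interval -0.58 to 0.15; limma adjusted p 0.911). Without heterozygous 3 it was -0.10, and without the library labelled heterozygous 1 it was -0.38. Grik4 and Grik3, the next kainate genes by signal, had means of 98.9 and 45.8 and differences of 0.05 and 0.01. Heterozygous 3 was the highest array for 4 of the 5 kainate genes, beside 19.3% of all genes.

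At the probe sets used, all 4 AMPA receptor genes, whose channels carry fast excitation in brain, were highest in heterozygous 3. Gria2, the subunit that limits calcium entry, read 124, 129 and 92 in homozygous and 108, 107 and 190 in heterozygous arrays. Gria3 read 102, 84.5 and 99.6 against 42.8, 85.5 and 187, and Gria4 93.1, 76.2 and 103 against 73.6, 123 and 131.5. In each, heterozygous 3 lies at or above the top of the other arrays and the groups overlap. Other probe sets of Gria3 and Gria4 disagreed. For Gria3 a further one read 60.8, 95.3 and 60.5 against 37.5, 54.4 and 47.2 (difference 0.37). For Gria4 a further one read 58.3, 75.2 and 64.7 against 2.7, 49.9 and 33.6 (difference 0.70). In both, all homozygous values lie above the heterozygous ones. Another of Gria4 was highest in heterozygous 3, at 48.6 against 1.8 to 33.8. The median difference of the class was -0.15 with all arrays and 0.10 without heterozygous 3. When the library labelled heterozygous 1 was left out it was -0.34. NMDA receptor genes, whose channels need both glutamate and a co-agonist, were dim throughout. Grin2d, Grin3a and Grin3b had mean signals of 93.2, 78.4 and 58.8 and differences of 0.06, -0.12 and 0.02. A further probe set of Grin2d gave -0.59 with overlap, and those of Grin3a gave 0.21 and 0.03. Grin2b had a difference of -0.34, with overlap. Its other probe sets gave -0.45, -0.71 and -0.59, each with all homozygous values below the heterozygous ones. They had mean signals of 50.1, 37.8 and 13.8 and were not tested.

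For the metabotropic glutamate receptors 1 array stood apart: heterozygous 3 lay a median of 1.09 log2 units above the mean of the other arrays, beside -0.02 over all genes. Grm3, a receptor that couples to inhibitory G proteins and is found on brain neurons and astrocytes, read 26.8, 64.3 and 1.4 in homozygous and 17, 34.9 and 232 in heterozygous arrays. Heterozygous 3 alone is high. Grm7, a presynaptic receptor, read 39.1, 35.3 and 28.4 against 12.4, 32.9 and 117. Other probe sets of Grm7 disagreed. A further one, not tested, read 14.6, 19.3 and 27.7 against 1.3, 2.1 and 10. There all homozygous values lie above the heterozygous ones, with a difference of 0.46. Another gave 0.01 with overlap. Grm4 had a mean of 103 and no array apart (difference 0.05). Of the 6 genes, 4 had a difference below 0 with all arrays, with a median of -0.28, and 1 without heterozygous 3, with a median of 0.04. Without the library labelled heterozygous 1 the median was -0.54. For Grm3 the difference was -0.68 with all arrays and 0.01 without heterozygous 3.

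**Figure D2:**
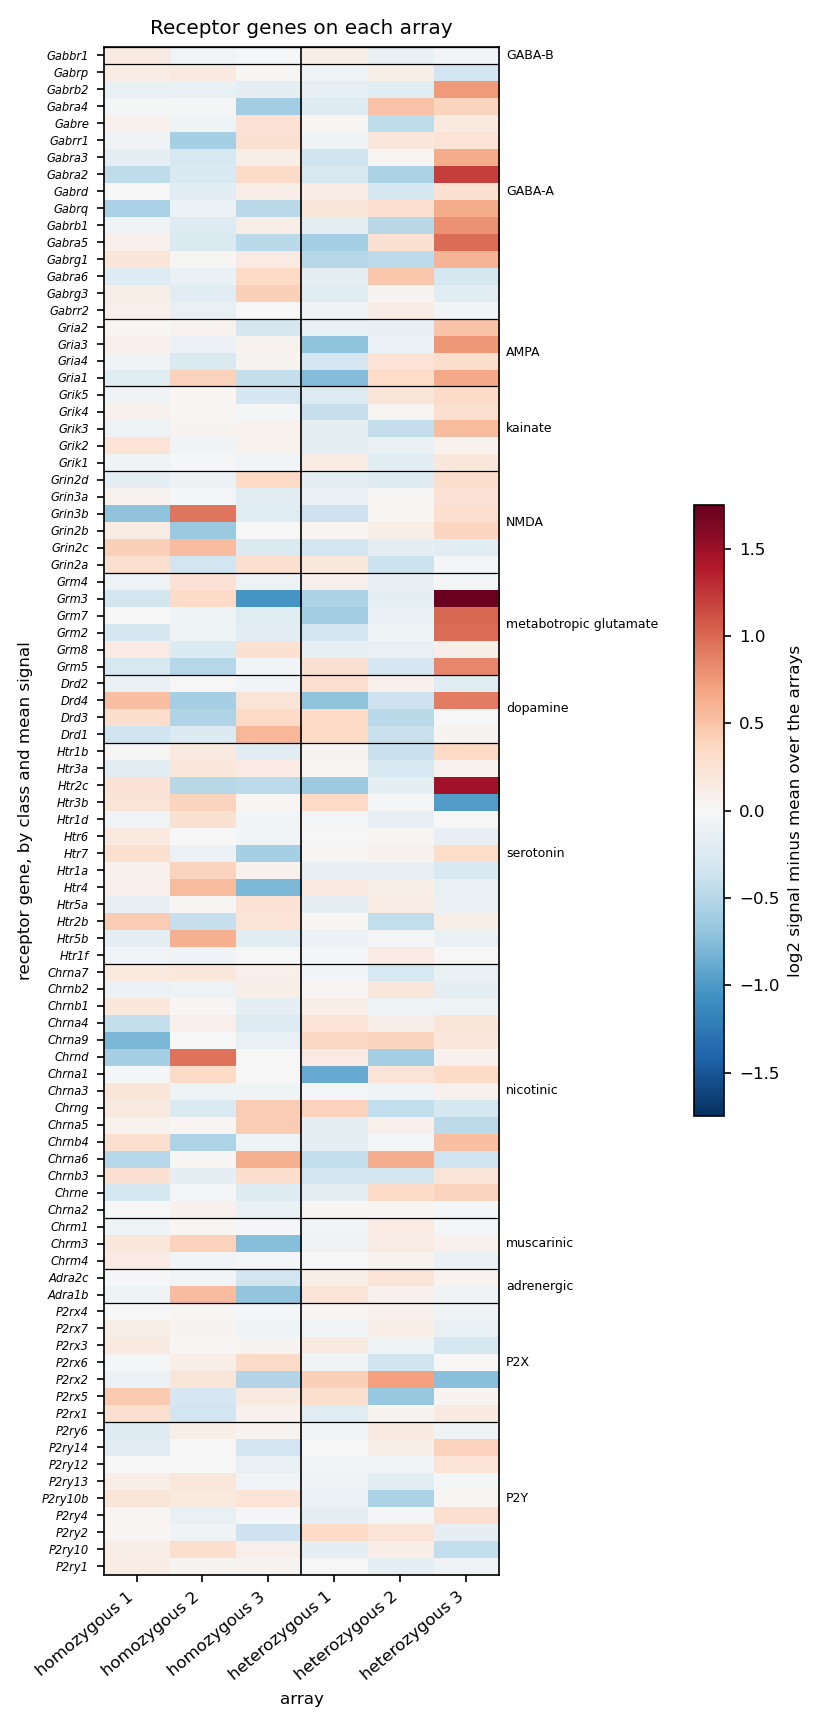
Log2 signal minus the mean over the 6 arrays for all 90 receptor genes, in rows by class and mean signal, with 1 column per array (red above, blue below that mean). Heterozygous 3 lies above the mean of the other arrays for 11 of 15 GABA-A, 4 of 4 AMPA, 5 of 5 kainate and 5 of 6 metabotropic glutamate receptor genes. In these classes it lies below that mean for Gabrp, Gabra6, Gabrg3, Gabrr2 and Grm4. It lies above for 4 of 6 NMDA, 8 of 15 nicotinic, 2 of 4 dopamine and 5 of 13 serotonin genes. The counts are 4 of 9 for P2Y, 2 of 7 for P2X, 1 of 3 for muscarinic, 1 of 2 for adrenergic and 0 of 1 for GABA-B.

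The values of heterozygous 3 that lay farthest above the other arrays were those of dim, untested genes. Among the 12 tested genes it was the highest array for 3, with a median of -0.06 log2 units against the mean of the other arrays. It was the highest for 0 of 7 P2X, 0 of 3 muscarinic and 0 of 2 adrenergic receptor genes. Over all classes it was the highest of the 6 arrays for 32 of 90 receptor genes, or 35.6%, beside 19.3% of all genes and 19.6% of the untested dim genes. The library labelled heterozygous 1 was the highest for 3 receptor genes, and the other arrays for 12 to 17 each. Over all genes the shares were 16.5%, 15.9% and 14% for homozygous 1, 2 and 3 and 17.2% and 16.9% for the other heterozygous arrays. Heterozygous 3 lay at least 1 log2 unit (2-fold) above the mean of the other arrays for 8 receptor genes, or 8.89%, beside 0.682% of all genes and 1.34% of the untested ones. Homozygous 2 did so for 2 genes, and the remaining 4 arrays for none. Over all genes those shares were 0.198%, 0.159% and 0.231% for homozygous 1, 2 and 3 and 0.0824% and 0.115% for the other heterozygous arrays. The 8 were Grm3 at 2.07, Htr2c at 1.76, Gabra2 at 1.45, Grm7 at 1.21, Grm2 and Gabra5 at 1.17, Drd4 at 1.08 and Grm5 at 1.01. These figures describe 1 array and carry no test.

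Further probe sets of the receptor genes went both ways. The 8 genes have 9 further probe sets, of which 8 were higher in heterozygous 3 than the mean of the other arrays, with 0 reaching 1 log2 unit. Among all 79 further probe sets of receptor genes, heterozygous 3 lay above the other arrays for 48 and below for 31, beside 52.5% above over the further probe sets of all genes. It reached 1 log2 unit at 6, beside 0.752% of those of all genes, and the 6 belong to 3 genes, Gabrb2, Gria2 and Gabrb1. For Gabrb2 the 5 probe sets lay 0.27 to 1.24 above. For Gria2 a further probe set read 33.3, 38.6 and 11.9 in homozygous and 17.1, 30.6 and 225 in heterozygous arrays, and another read 233 in heterozygous 3 against 7.1 to 74.1 elsewhere.

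**Figure D3:**
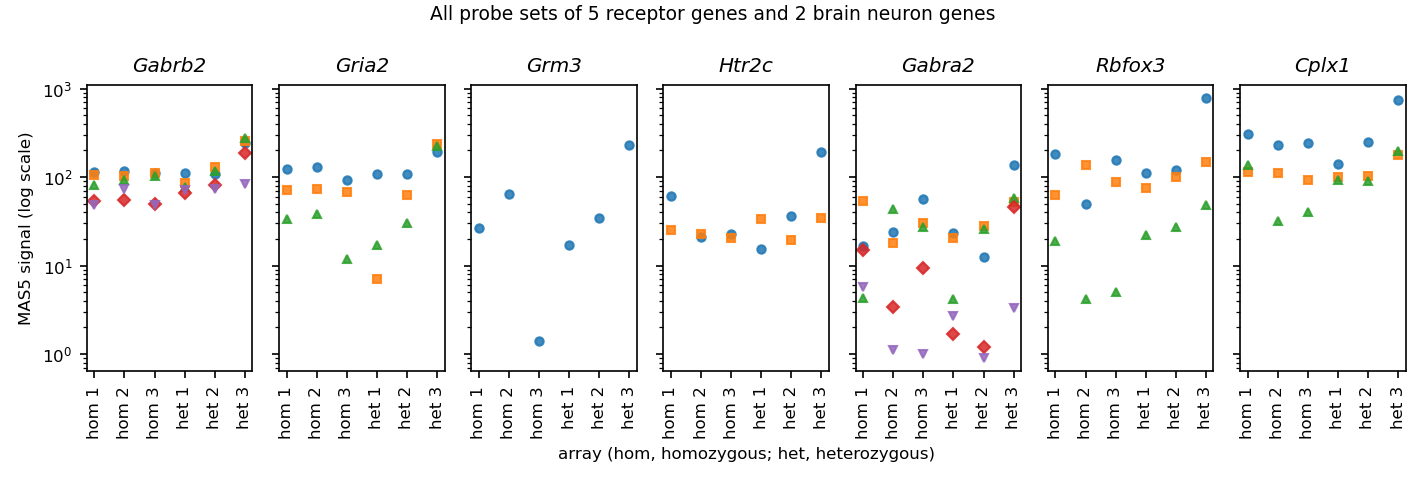
MAS5 signal (log axis) on each array for every probe set of Gabrb2, Gria2, Grm3, Htr2c and Gabra2 and of the brain neuron genes Rbfox3 and Cplx1, with 1 symbol and colour per probe set within a panel. In each panel the highest point, 135.6 for Gabra2 to 791 for Rbfox3, belongs to heterozygous 3. The panels were picked with these values known, so they illustrate the pattern and do not test it.

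Of the dopamine receptors, Drd2 was the only gene tested. Drd2 encodes the D2 receptor, which inhibits adenylyl cyclase. It read 599, 654 and 632 in homozygous 1, 2 and 3 and 811, 688 and 559.5 in heterozygous 1, 2 and 3. The heterozygous values lie on both sides of the homozygous ones. The means were 628 ± 27.5 and 686 ± 126 (SD, n = 3 each), and the difference was -0.11 ± 0.12 (SE; 95% interval -0.38 to 0.17; limma adjusted p 0.942). Leaving out heterozygous 3 gave -0.24. Leaving out the library labelled heterozygous 1 gave 0.02, so the sign rests on single arrays. Drd4 and Drd3 had mean signals of 44.5 and 26.8. Drd4 read 71.4, 12.1 and 50.7 against 8, 20.9 and 104, at a probe set (suffix _s_at) that may also bind related transcripts.

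Among 13 serotonin receptor genes, Htr1b and Htr3a were tested. Htr1b, an inhibitory receptor on nerve terminals, read 233, 259 and 195 in homozygous and 239, 166 and 303 in heterozygous arrays. The heterozygous arrays span all the homozygous values, with a difference of -0.01 ± 0.19 (SE; 95% interval -0.42 to 0.40; limma adjusted p 0.996). Its other probe set, not tested, gave 0.45 and thus disagrees. Htr3a, which forms the serotonin-gated channel, read 140.4, 194 and 186 against 168.5, 130 and 173, an overlap with a difference of 0.11 ± 0.16 (SE; 95% interval -0.25 to 0.48; limma adjusted p 0.962). Htr2c, a receptor of choroid plexus and brain neurons, read 61.7, 21.3 and 22.6 against 15.5, 36.7 and 193. At this probe set heterozygous 3 alone was again high, and the difference moved from -0.45 to 0.17 without that array. A further probe set of Htr2c read 25.2, 22.6 and 20.7 against 33.4, 19.7 and 34.3, an overlap with a difference of -0.13.

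Adra2c was the tested adrenergic receptor gene and its probe sets disagreed. Adra2c encodes an alpha-2 receptor that couples to inhibitory G proteins. The probe set of highest mean read 258, 251 and 202 in homozygous and 285, 314 and 274.5 in heterozygous arrays. The homozygous values all lie below the heterozygous ones, with a difference of -0.26 ± 0.13 (SE; 95% interval -0.55 to 0.02; limma adjusted p 0.888). A second tested probe set read 275, 259 and 259 against 242, 279 and 139.7, with a difference of 0.27 in the opposite direction. Adra1b, the other member, had a mean of 51.5 and was not tested.

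Chrna7 showed the lowest unadjusted p of the tested receptor genes. It encodes the alpha-7 subunit, which forms a calcium-permeable nicotinic channel on its own. It read 296, 298 and 278 in homozygous and 249.3, 205 and 236 in heterozygous arrays. All homozygous values lie above all heterozygous ones, with means of 290 ± 10.9 and 230.3 ± 22.7 (SD, n = 3 each). The difference was 0.29 ± 0.12 (SE; 95% interval 0.03 to 0.56), with an unadjusted p of 0.0345 and an adjusted p of 0.859 in limma, so it did not pass. Leaving out single arrays gave 0.23 to 0.35. Its other probe set had a mean of 52.2 and a difference of -0.01.

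The other nicotinic genes gave no call either. Chrnb2, the beta subunit of most brain nicotinic receptors, read 199, 201 and 236 against 221, 254 and 191. The groups overlap, with a difference of -0.05 ± 0.14 (SE; 95% interval -0.37 to 0.26; limma adjusted p 0.985). Its partner Chrna4 and the gene Chrna9, of the hair cell receptor, had groups that did not overlap, with all homozygous values lower. Chrna4 read 32.2, 62.1 and 41.9 against 72.2, 62.6 and 70.2, and Chrna9 read 9.6, 45.1 and 38.7 against 69.8, 71.4 and 57.5. At the other probe sets of Chrna4 the groups overlap, with differences of -0.19 and -0.30. At its 2 other probe sets Chrna9 had differences of 0.02 and 0.14, against -0.62 at the one used. Chrnb1, a subunit of the muscle receptor, had a mean of 61.7 and a difference of 0.04. Skeletal muscle markers, 8 of 8 measured, summed to 545 to 855 in homozygous and 364.5 to 595 in heterozygous arrays. Their part in the values of muscle receptor subunits was not tested.

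Muscarinic receptors were dim at every probe set. Chrm3, the receptor reported in olfactory neurons, read 53.2, 66.8 and 8.8 in homozygous and 38, 48.8 and 45.7 in heterozygous arrays, with no separation. Chrm1 read 105, 117 and 109 against 108, 129 and 112, a narrow range with a difference of -0.05, and Chrm4 had a mean of 6.12.

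P2rx4, an ATP-gated channel, had the smallest SE of the 12 tested receptor genes. It read 1733, 1757 and 1692 in homozygous and 1760.1, 1826 and 1644.5 in heterozygous arrays. The heterozygous arrays enclose the homozygous ones, and the difference was -0.01 ± 0.07 (SE; 95% interval -0.18 to 0.15; limma adjusted p 0.994). A second tested probe set gave -0.02. P2rx7, a channel known from immune cells, had a mean of 91.6, and P2rx3, a channel of sensory neurons, one of 86.8. Their differences were 0.05 and 0.15. The probe sets of P2rx3 disagreed. A further one, not tested, read 5.8, 38.2 and 7.1 against 49.5, 41.5 and 63.6, without overlap and with a difference of -0.73. Another gave 0.12.

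Of the P2Y receptors, which answer to nucleotides through G proteins, P2ry6 and P2ry14 were tested. P2ry14, the receptor for UDP-glucose, read 141, 165.5 and 124 in homozygous and 163.5, 183 and 232 in heterozygous arrays. Homozygous 2 alone lies above a heterozygous array, the library labelled heterozygous 1. The difference was -0.34 ± 0.16 (SE; 95% interval -0.71 to 0.02; limma adjusted p 0.884), or -0.22 without heterozygous 3. P2ry6, the receptor for UDP, read 224, 295 and 281 against 260, 302.5 and 256.5, an overlap with a difference of -0.03 ± 0.13 (SE; limma adjusted p 0.9903). P2ry12, a receptor of platelets and microglia, had a mean of 111 and a difference of -0.09, and P2ry2, an ATP and UTP receptor, a mean of 29.2 and a difference of -0.27. Htr1a, P2ry10b and P2ry1 were the further dim genes without overlap, all higher in homozygous arrays. A second probe set of Htr1a overlapped and had a difference of -0.21, against 0.36 at the one used. Macrophage and microglia markers, 10 of 11 measured, summed to 7584 to 8333 in homozygous and 7156.5 to 7635 in heterozygous arrays, and their part was not tested.

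**Figure D4:**
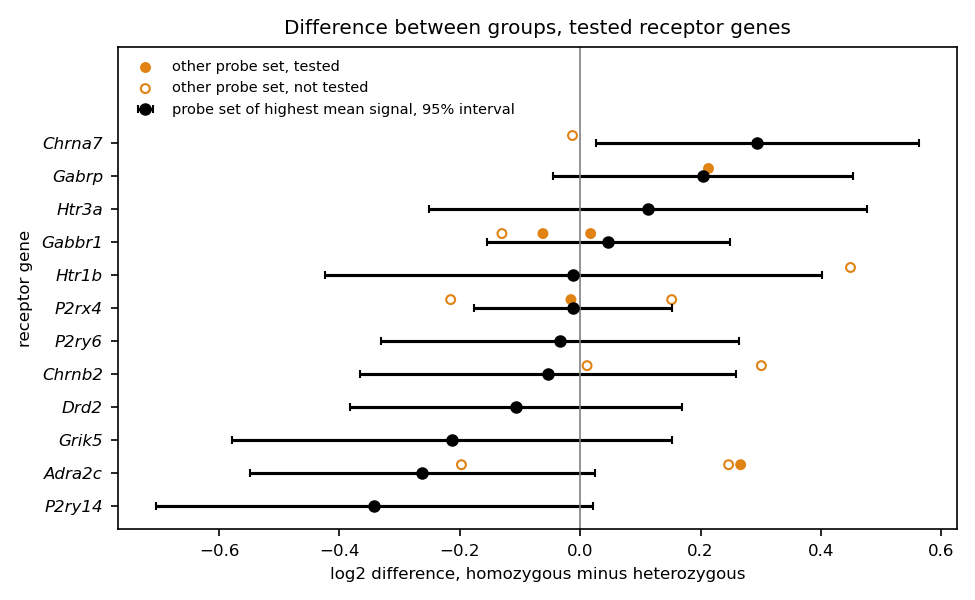
Log2 difference (homozygous minus heterozygous) of the 12 tested receptor genes, with 95% limma intervals as bars, and of their other probe sets as orange points (filled where tested). The interval of Chrna7 lies above 0 before adjustment, and the probe sets of Adra2c lie on both sides of 0.

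Probe sets of 1 gene often disagreed in sign. Of the 49 receptor genes with several probe sets, 26 had differences on both sides of 0. Dim genes also varied more within a group. The median SD on the log2 scale was 0.16 for tested and 0.30 for untested receptor genes, beside 0.12 and 0.27 for tested and untested genes of the whole array.

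Genes that supply and clear transmitters, and partners of the receptors, were read from the same fit. Of 37 genes of transmitter supply, 33 were measured and 11 tested. With limma 0 passed adjustment in either direction, and 0 were higher and 1 lower at an unadjusted p under 0.05. Their median difference was -0.05. Glul, which makes glutamine from glutamate, had means of 6172 ± 642 against 6986 ± 191 (SD, n = 3 per genotype; homozygous first), a difference of -0.18 ± 0.08 (SE; limma adjusted p 0.862). Slc17a6, the vesicular glutamate transporter of olfactory neurons, read 2511 ± 36.0 and 2639 ± 90.4. All homozygous values lie below the heterozygous ones, by a difference of -0.07 ± 0.07 (SE; limma adjusted p 0.919). The monoamine oxidase genes Maob and Maoa differed by -0.15 and -0.07.

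Of 45 partner genes, 41 were measured and 23 tested, and 0 passed adjustment or an unadjusted p under 0.05 in limma. Gabarap, which binds GABA-A receptors, and its relatives Gabarapl2 and Gabarapl1 differed by -0.06, -0.01 and 0.01. Homer2, a scaffold of metabotropic glutamate receptors, differed by 0.0096. Homer3 read 225.5 ± 12.4 against 182 ± 14.0 (SD, n = 3 each) without overlap, a difference of 0.26 ± 0.13 (SE; limma adjusted p 0.888). Neto2, an auxiliary subunit of kainate receptors, differed by 0.19.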

How the data were processed

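The authors deposited linear intensity values for each probe set of Affymetrix mouse arrays, made with MAS5 per the submitters' processing notes (version not stated there), after one-cycle labelling. The 2% trimmed mean was 500 on every array, so no further scaling was applied. Probe sets were named from the platform annotation where it gives 1 gene (34958 of 45101; 932 name several and 9211 none). Values were analysed as log2(value + 38.8), the 25th percentile of all values, which understates changes of dim probe sets. The 22514 probe sets, controls aside, with a mean log2 value at or above the median of all probe sets were fitted with limma (3.58.1, R 4.3.3; lmFit, eBayes with intensity trend, Benjamini-Hochberg over all tested, threshold 0.05), which was tested on simulated data. Promoters came from RefSeq (GRCm38.p6); 69 of 90 receptor genes matched. The receptor genes and the lists were chosen with earlier results of these data known. Named were, per class, the 3 genes of highest signal and the 2 tested of lowest p, the 5 tested of largest difference, and Drd2, Gabbr1, Gabbr2, Chrm3, P2ry2 and P2rx3; from the lists of supply and partner genes, the 4 of highest signal and the 2 of lowest p. Other genes named were chosen after their values were seen. Alternatives were other offsets, scalings, filters, variance models, a replicate block, a threshold of 0.1, arrays left out and averaging a gene's probe sets.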

Additional observations from a re-analysis of the deposited data

How the results depend on the processing

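Receptor genes called stayed at 0 under every alternative run, as did the supply and partner genes. Over all probe sets the count was 0 in the analysis as reported, 1 with the pooled median as offset, 27 without the libraries labelled heterozygous 1 and 3, and 0 to 25 with 1 array left out, the 25 without the library labelled heterozygous 1. The fit behind the 27 keeps 1 heterozygous array, so the spread comes from the homozygous arrays and the lone array is assumed to vary like them. With 1 array left out the median difference of the 90 receptor genes ran from -0.055 (without the library labelled heterozygous 1) to 0.048 (without heterozygous 3). Directions turned for 6 tested genes whose differences are small. With the mean of all probe sets Gabbr1 was at -0.032 and Htr1b at 0.22, and Htr1b was at 0.38 without the libraries labelled heterozygous 1 and 3. With 1 array left out the ranges were -0.14 to 0.034 for Chrnb2, -0.24 to 0.02 for Drd2, -0.022 to 0.11 for Gabbr1, -0.21 to 0.16 for Htr1b, -0.053 to 0.021 for P2rx4 and -0.10 to 0.071 for P2ry6; the cause was not tested. With the replicate block 0 probe sets were called and 1106 had an unadjusted p under 0.05, against 1291 without it. No sign of pairing by replicate number was seen. The deviations of same-numbered arrays correlated at 0.016, -0.116 and -0.047, and 0 of 6 arrays correlated best with its own number. With 3 arrays per group this cannot show that the arrays were unpaired. The signal limits what can be seen, since 78 of the 90 genes lie under the filter, and 3 arrays per group gave the 12 tested ones a median SE of 0.13.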
